A study of Mus musculus with 6 samples.

Results

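The constitutive proteasome is described here through 47 protein-coding mouse genes, chosen by symbol alone from the 55335 gene identifiers counted in every library: all genes whose GENCODE M21 symbol starts with Psma, Psmb, Psmc, Psmd, Psme, Psmf or Psmg, with the interferon-inducible Psmb8, Psmb9 and Psmb10 left out. Of these, 45 passed the filter on low counts, among 13642 genes tested. RNA was measured in 3 scrambled control and 3 IFNγR1KO cultures of the mouse melanoma line B16 (the BL6 subline in the methods), seeded overnight before lysis, with no treatment named in the methods. Both groups went through lentiviral transduction with Cas9 and a guide, which in scrambled control cells targets GFP and in IFNγR1KO cells targets Ifngr1, the gene of a chain of the receptor for IFN-γ. Per the methods, the cultures were seeded in triplicate, and knockout cells were grown out from single cells. The sources used here do not say whether the 3 IFNγR1KO cultures are of the same clone or which of the Ifngr1 guides they carry, so p-values measure the spread between these cultures, and an effect of the knockout cannot be told apart from an effect of clonal selection.

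The 26S proteasome degrades proteins that carry ubiquitin chains. Its barrel, the 20S core, stacks rings of α subunits, which form the gate, around rings of β subunits, of which Psmb5, Psmb6 and Psmb7 carry the cutting sites. The 19S regulatory particle caps the barrel: its base holds ATPases that unfold the substrate, and its lid removes the ubiquitin. IFN-γ is known to swap the cutting subunits for the immunoproteasome subunits Psmb8, Psmb9 and Psmb10, which favours peptides for MHC class I, while loss of proteasome capacity is known to raise the standard subunits together through the transcription factor NRF1 (Nfe2l1). The comparison asks how far the standard subunits moved in cells in which the IFN-γ receptor was targeted.

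The libraries held 9402640 to 10579788 counts on genes in scrambled control and 6698956 to 7409479 in IFNγR1KO cells. Ifngr1 itself had 154, 144 and 172 counts in scrambled control and 80, 85 and 82 in IFNγR1KO libraries, or -0.47 on the log2 scale (adjusted p = 0.0729, edgeR's quasi-likelihood test, Benjamini-Hochberg adjusted), so its transcript was still counted in every library. All 7 melanocyte markers were present, at a summed 31716 to 34659 CPM (the counts of a gene scaled to a common library total by the TMM method) in scrambled control and 27898 to 32830 CPM in IFNγR1KO cells. Of 5 haematopoietic, 3 endothelial and 4 epithelial markers, none exceeded 4 counts in any library. The 5 fibroblast markers summed to 57.0 to 75.4 CPM in scrambled control and 129 to 133 CPM in IFNγR1KO cells, nearly all from the collagen gene Col1a2, with Dcn and Lum at 0.109 CPM or less. Col1a2 and Col1a1 rose, by 1.07 and 1.96 on the log2 scale (adjusted p = 0.000476 and 0.00175, edgeR), and Pdgfra gave -0.77 (adjusted p = 0.0866, edgeR). The part of these markers in the proteasome values was not tested. Scrambled control 3 and IFNγR1KO 12 stood apart from the other libraries of their groups in proteasome genes, and results are therefore given with and without them.

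Promoter sequences are shown for genes on which the comparison turns: Psmd12 and Psmd5 are 2 of the 3 members that passed the test, Psmb5 had the highest log2 fold change among the members, and Psmb8 is the immunoproteasome subunit that takes the place of Psmb5. Each run is the 250 bases before a RefSeq transcription start on GRCm38.p6, written 5′ to 3′ on the gene's strand. Capitals mark matches, on either strand, to TGACNNNGC, the core of the antioxidant response element that NRF1 and NRF2 bind, or to TTCNNNGAA, the GAS element through which IFN-γ acts on promoters.
Psmd12, chr11:107479278-107479527, plus strand: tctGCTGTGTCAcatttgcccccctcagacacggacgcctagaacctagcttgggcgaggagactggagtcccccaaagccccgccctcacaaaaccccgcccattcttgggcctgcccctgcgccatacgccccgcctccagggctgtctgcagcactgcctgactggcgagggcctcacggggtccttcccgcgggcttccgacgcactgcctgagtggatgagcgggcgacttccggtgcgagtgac
Psmd5, chr2:34870963-34871212, minus strand: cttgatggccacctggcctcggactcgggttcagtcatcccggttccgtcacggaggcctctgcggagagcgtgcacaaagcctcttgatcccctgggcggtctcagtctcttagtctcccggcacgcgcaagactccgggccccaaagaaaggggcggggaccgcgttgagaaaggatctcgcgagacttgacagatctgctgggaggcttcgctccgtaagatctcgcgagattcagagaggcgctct
Psmb5, chr14:54617996-54618245, minus strand: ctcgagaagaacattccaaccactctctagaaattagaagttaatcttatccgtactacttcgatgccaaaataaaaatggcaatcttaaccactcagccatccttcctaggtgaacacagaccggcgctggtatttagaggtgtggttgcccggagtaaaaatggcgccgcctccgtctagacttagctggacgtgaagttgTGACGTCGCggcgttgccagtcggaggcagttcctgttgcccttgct
Psmb8, chr17:34197945-34198194, plus strand: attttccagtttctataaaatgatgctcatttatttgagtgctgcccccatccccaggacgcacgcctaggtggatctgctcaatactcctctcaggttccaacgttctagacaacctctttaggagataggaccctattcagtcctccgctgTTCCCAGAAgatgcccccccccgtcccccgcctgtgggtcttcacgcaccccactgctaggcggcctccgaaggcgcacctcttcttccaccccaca

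In these windows, Psmb5 held a match to TGACNNNGC that began 47 bases before the start, Psmd12 held one 247 bases before it, on the other strand, and Psmd5 held neither motif. The window of Psmb8 held a match to TTCNNNGAA 97 bases before the start, while the windows of Psmb9 and Psmb10 held neither motif. RefSeq windows were matched by symbol for 39 of the 47 members, the others being Psma8, Psmb1, Psmb2, Psmb7, Psmc3, Psmd3, Psmd7 and Psmg2. TGACNNNGC occurred in 5 of the 39 (12.8%), namely Psmb5, Psmb6, Psmc6, Psmd12 and Psmd9, against 11.5% of 27025 genes with a window of the same length. TTCNNNGAA occurred in 1 of the 39 (2.56%), Psmg1, against 8.13% of those genes. CCAAT, the box bound by NF-Y, occurred in 14 of the 39 (35.9%) against 37.5%. A match is a description of letters and not a bound site.

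The transcripts of the standard proteasome lay within 0.49 of their control level on the log2 scale in IFNγR1KO cells. Among the 45 members tested, 3 fell (Psmd7, Psmd5 and Psmd12, by 24.7% to 28.9%) and 0 rose at an adjusted p under 0.05 (edgeR's quasi-likelihood test, Benjamini-Hochberg adjusted over all 13642 genes), or 6.67% of the members. Over all genes tested 15.3% were called, 7.62% lower and 7.73% higher. None of the members had an absolute log2 fold change above 1 in addition, against 5.2% of all genes. DESeq2's Wald test, run without the filter on low counts, called 4 of 46 members lower, Psmd1 being the fourth, and 0 higher. It called 8.66% of all genes in either direction, a share over its own set of genes and not over the 13642. With edgeR, 8 of the 45 had an unadjusted p under 0.05, against 28.9% of all genes. The calls depended on the libraries used, as set out below.

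The direction was mostly downward. The log2 fold change was below 0 for 37 of the 45 members (82.2%), against 50.2% of all genes tested, with a median of -0.15 (quartiles -0.33 and -0.05) against -0.00 for all genes. Both values depended on single libraries: without IFNγR1KO 12 the median was -0.05 with 27 members below 0, without scrambled control 1 it was -0.09 with 29, and without scrambled control 3 it was -0.23 with 41. The members ranged from -0.49 (Psmd7) to 0.17 (Psmb5), with an SD of 0.178 over genes against 0.572 in all genes tested. Of the 45 members, 31 stood at or above 119 CPM in scrambled control cells, the level of the lowest tested core subunit Psmb2, and 14 stood below it. Those 31 had a median of -0.16 and an SD of 0.157, with 2 called, and all 1713 genes at that level had a median of -0.12 and an SD of 0.341, with 15.6% called. The 95% intervals of all 45 members lay between -1 and 1, as those of 76.7% of all genes did, so a change as large as the study's threshold for a differentially expressed gene was outside the interval of each. Every IFNγR1KO library lay below every control library for 10 of the 45 members (22.2%), against 16.6% of all genes, and above every control library for 0 members, against 16% of all genes.

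**Figure D1:**
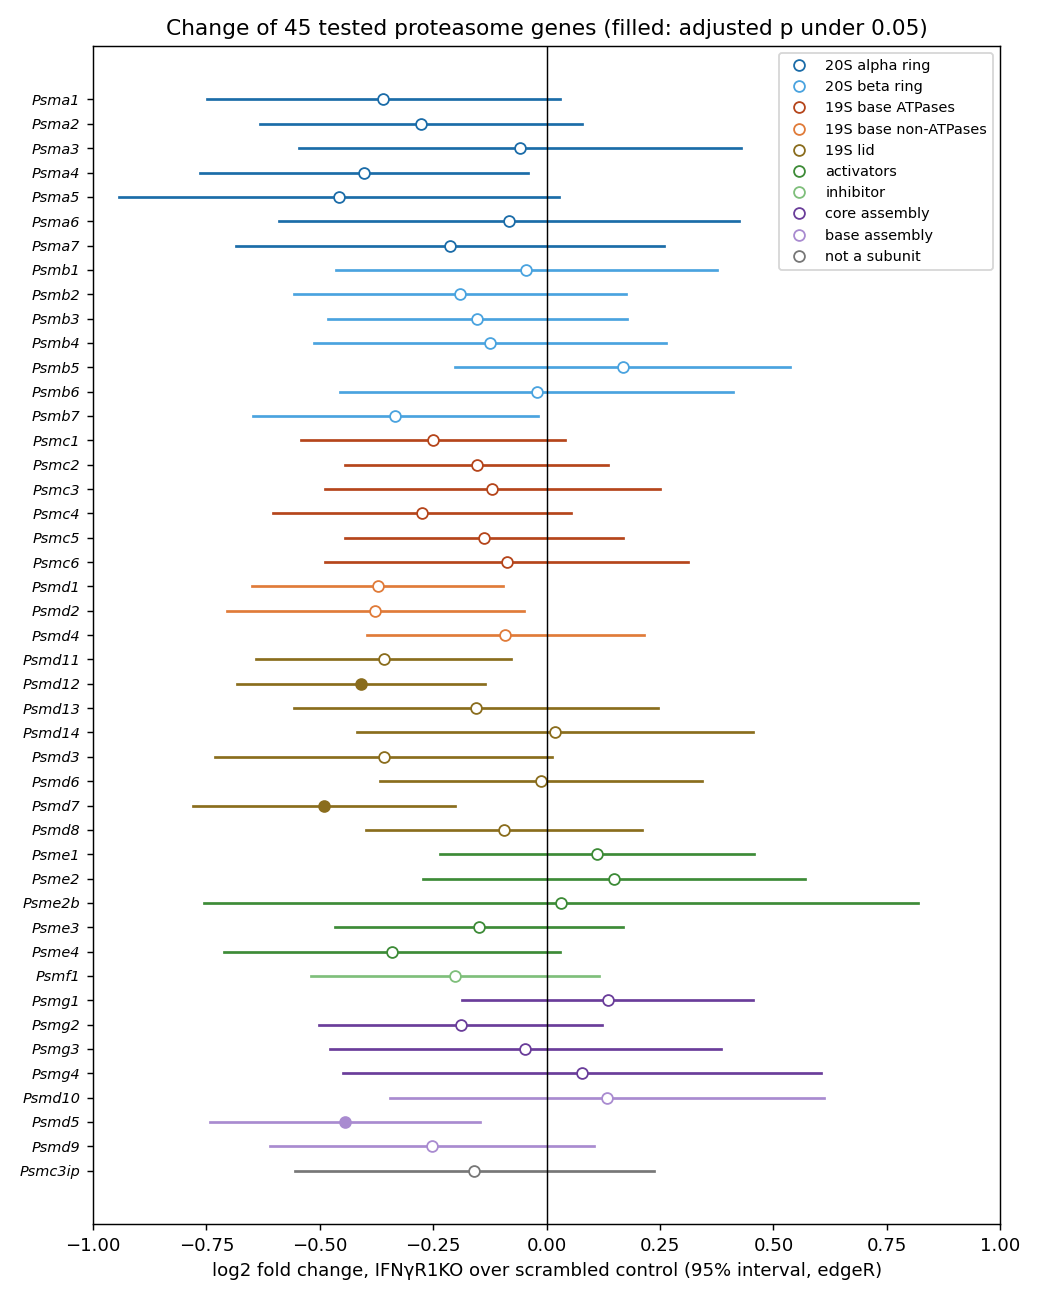
Log2 fold change of IFNγR1KO over scrambled control (horizontal axis, 3 libraries a group) for the 45 tested members, with the 95% interval from edgeR as a bar and the role of each gene as colour. Only Psmd7, Psmd12 and Psmd5 are filled (adjusted p under 0.05), 37 of the points lie left of 0, and no bar reaches -1 or 1.

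Within the 20S core, 0 of the 14 tested subunits passed the test, where 15.3% of all genes did. The 7 tested α subunits all lay below 0, from -0.46 to -0.06 with a median of -0.28, and the 7 tested β subunits ran from -0.33 to 0.17 with a median of -0.13 and 6 below 0. Psma5, an α subunit, had the lowest value of the core. It stood at 279, 224 and 175 CPM in scrambled control 1, 2 and 3 and at 191, 194 and 109 CPM in IFNγR1KO 10, 11 and 12, so the groups overlapped and the library labelled 12 was the lowest of all. Its log2 fold change was -0.46 (95% interval -0.94 to 0.03, adjusted p = 0.2, edgeR), and 23.7% of its 100-base stretches also occur in other annotated genes. Psma7 had the highest level per transcript length of all members, 550 ± 129 CPM per kb (SD, n = 3) in scrambled control and 475 CPM per kb in IFNγR1KO cells, and a log2 fold change of -0.21. Psmb4, the β subunit with the highest level per length, stood at 413 ± 76.2 CPM per kb in scrambled control cells and had a log2 fold change of -0.13.

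The 3 cutting subunits differed in the sign of their estimates. Psmb5, with chymotrypsin-like activity, stood at 137, 143 and 97.3 CPM in scrambled control and 154, 151 and 119 CPM in IFNγR1KO libraries. Psmb6, with caspase-like activity, stood at 319, 318 and 220 CPM against 321, 320 and 204 CPM. Psmb7, with trypsin-like activity, stood at 328, 388 and 307 CPM against 289, 275 and 248 CPM, and was the core subunit whose groups did not overlap. Their log2 fold changes were 0.17 (95% interval -0.20 to 0.54), -0.02 (-0.45 to 0.41) and -0.33 (-0.65 to -0.02), with adjusted p of 0.571, 0.963 and 0.148 (edgeR's quasi-likelihood test, Benjamini-Hochberg adjusted). For Psmb6 the sign turned under other scalings of the libraries. Whether the 3 differ from each other was not tested. Of the exonic bases of Psmb7, 11.8% lie under exons of Nek6 on the other strand, and the strand setting of the counting is not given.

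Of the tissue-specific core subunits, Psma8, the α subunit of the testis, had 0 counts in all 6 libraries, and Psmb11, the β subunit of the thymus cortex, had 1 count in IFNγR1KO 11 and 0 in the others. A count of 0 allows up to 3 counts, at 0.0966 to 0.142 CPM a count, and 1 count is 0.135 CPM in IFNγR1KO 11, against 1.84 CPM or more in every library for every other member. The filter left both out of the test.

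**Figure D2:**
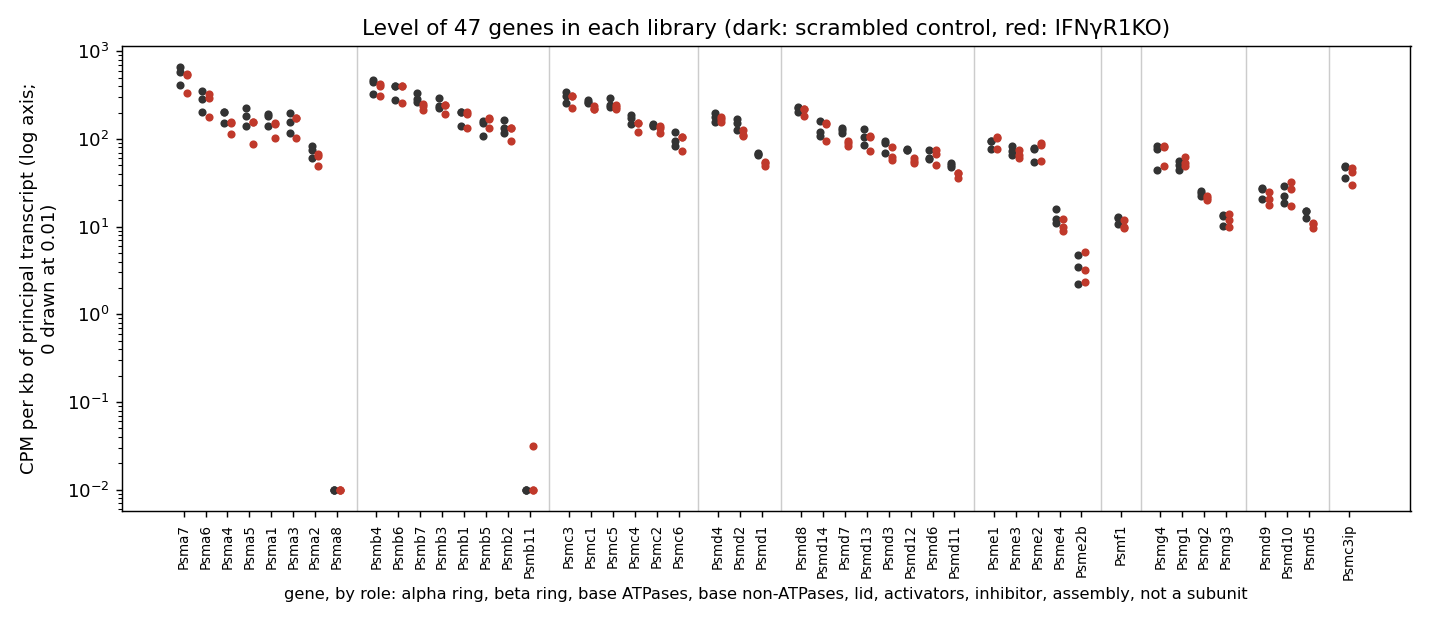
Level of each of the 47 members in each library in CPM per kb of the principal transcript (logarithmic vertical axis, a value of 0 drawn at 0.01), scrambled control in dark and IFNγR1KO in red, grouped by role. The levels run from 550 CPM per kb for Psma7 to 3.48 CPM per kb for Psme2b in scrambled control cells, with Psma8 and Psmb11 at the floor.

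The 19S base showed small differences of the same sign. All 6 ATPases, Psmc1 to Psmc6, lay below 0, from -0.28 (Psmc4) to -0.09 (Psmc6). Of these, 0 passed the test, where 15.3% of all genes did. Psmc4 stood at 253, 269 and 212 CPM in scrambled control and 218, 216 and 172 CPM in IFNγR1KO libraries (adjusted p = 0.259, edgeR). Psmc3, the ATPase with the highest level per length at 305 ± 44.2 CPM per kb in scrambled control cells, had a log2 fold change of -0.12 (95% interval -0.49 to 0.25). Among the scaffolds and receptors of the base, Psmd2 stood at 379, 455 and 498 CPM in scrambled control and at 321, 330 and 374 CPM in IFNγR1KO libraries. The groups did not overlap, although scrambled control 1 and IFNγR1KO 12 lay close together. The log2 fold change of Psmd2 was -0.38 (95% interval -0.71 to -0.05, adjusted p = 0.116, edgeR). The other large scaffold, Psmd1, gave -0.37 (adjusted p = 0.0676, edgeR), while Psmd4, a ubiquitin receptor, gave -0.09 (95% interval -0.40 to 0.21).

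Of the 8 lid subunits tested, 2 were called lower (25%), against 7.62% of all genes. Both calls depended on the libraries used, as set out below. Psmd7 (ENSMUSG00000039067.5, chromosome 8 of GRCm38, 107580381 to 107588464) encodes the partner of the deubiquitinase Psmd14. It stood at 198, 211 and 183 CPM in scrambled control and 151, 141 and 130 CPM in IFNγR1KO libraries, so every IFNγR1KO library lay below every control. Psmd7 fell by 0.49 on the log2 scale (SE, the standard error, 0.133, 95% interval -0.78 to -0.20, adjusted p = 0.0266, edgeR's quasi-likelihood test, Benjamini-Hochberg adjusted), or 28.9% lower. Psmd12 (ENSMUSG00000020720.13, chromosome 11, 107479484 to 107504362), a scaffold subunit of the lid, stood at 141, 146 and 141 CPM in scrambled control and 115, 106 and 102 CPM in IFNγR1KO libraries. Its controls were among the closest of any member, and the groups did not overlap. Psmd12 fell by 0.41 on the log2 scale (SE 0.126, 95% interval -0.68 to -0.14, adjusted p = 0.0451, edgeR), or 24.7% lower.

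The other 6 lid subunits tested ran from -0.36 to 0.02. Psmd11 and Psmd3, both lid scaffolds, gave -0.36 each (adjusted p = 0.0819 and 0.188, edgeR), and the groups did not overlap for Psmd11. Psmd14, the enzyme that cleaves ubiquitin off the substrate, gave 0.02 (95% interval -0.42 to 0.45) with 249, 184 and 164 CPM in scrambled control and 233, 226 and 146 CPM in IFNγR1KO libraries. Its estimate thus lay at the opposite end of the lid from that of its partner Psmd7, a difference that was not tested. Psmd8, the lid gene with the highest level per length at 221 ± 14.6 CPM per kb in scrambled control cells, gave -0.09 (95% interval -0.40 to 0.21).

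Summed over subunits, the base stood at 2907, 3006 and 2723 CPM in scrambled control and 2619, 2577 and 2285 CPM in IFNγR1KO libraries. The summed lid stood at 1585, 1535 and 1407 CPM against 1386, 1353 and 1170 CPM. Neither sum overlapped between the groups, with log2 ratios of the group means of -0.21 each against a pooled SD of 0.0917 for the base and 0.113 for the lid. The core summed to 4487, 4292 and 3146 CPM against 3973, 3925 and 2696 CPM, so the spread within each group exceeded the log2 ratio of -0.17 (pooled SD 0.299). Leaving out IFNγR1KO 12 alone brought the ratio of the core to -0.01, leaving out scrambled control 3 alone brought it to -0.31, and leaving out both gave -0.15. All 45 tested members together took 0.731% to 0.961% of the counts of a library. These sums describe RNA in whole cultures, in which less RNA per cell and fewer cells of a kind cannot be told apart.

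Of the 5 tested activators, 0 passed the test, where 15.3% of all genes did. The IFN-γ-responsive pair Psme1 and Psme2, which form the PA28αβ cap that opens the core gate for small peptides, had estimates above 0. Psme1 stood at 106, 104 and 84.4 CPM in scrambled control and 118, 115 and 85.1 CPM in IFNγR1KO libraries. Psme2 stood at 75.6, 73.6 and 53.1 CPM against 87.5, 82.9 and 53.7 CPM. The groups overlapped for both, and the log2 fold changes were 0.11 (95% interval -0.23 to 0.46) and 0.15 (-0.27 to 0.57), with adjusted p of 0.703 and 0.672 (edgeR). Psme2b, a near copy of Psme2 with which it shares 52.0% of its 100-base stretches, was at 1.84 to 4.26 CPM, so reads could be split between the pair. Psme3, the nuclear PA28γ, gave -0.15 (95% interval -0.47 to 0.17) with 173, 193 and 221 CPM against 159, 173 and 198 CPM. Psme4, the large PA200 activator of the nucleus, gave -0.34 (95% interval -0.71 to 0.03, adjusted p = 0.211, edgeR) with 71.6, 80.2 and 104 CPM against 58.2, 64.2 and 79.8 CPM. Psmf1, the PI31 regulator that inhibits the core in the test tube, stood at 40.5, 48.4 and 49.2 CPM against 37.1, 37.4 and 45.5 CPM and gave -0.20 (95% interval -0.52 to 0.12).

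The chaperones of the α ring, Psmg1 to Psmg4, stood at 12.3 to 67.4 CPM per kb in scrambled control cells, against 73.2 to 550 CPM per kb for the tested core subunits. Psmg1 and Psmg2 act as one pair and Psmg3 and Psmg4 as another. None of the 4 passed the test, where 15.3% of all genes did. They gave 0.13, -0.19, -0.05 and 0.08 on the log2 scale. Psmg2 was the member of the 4 whose groups did not overlap, with 23.9, 27.2 and 25.6 CPM in scrambled control and 21.5, 23.6 and 22.2 CPM in IFNγR1KO libraries. Of the chaperones of the base, Psmd5 (S5b, ENSMUSG00000026869.12, chromosome 2, 34849734 to 34874968) stood at 54.9, 67.1 and 65.7 CPM in scrambled control and 48.2, 42.7 and 47.2 CPM in IFNγR1KO libraries, with no overlap. Psmd5 fell by 0.44 on the log2 scale (SE 0.137, 95% interval -0.74 to -0.15, adjusted p = 0.0464, edgeR's quasi-likelihood test, Benjamini-Hochberg adjusted), or 26.5% lower. The other base chaperones, Psmd9 (p27) and Psmd10 (gankyrin), gave -0.25 and 0.13 with overlapping groups, and 25.5% of the exonic bases of Psmd9 lie under another gene on the other strand. Psmc3ip, which the symbol rule takes in although it encodes a cofactor of meiotic recombination, gave -0.16 with 21.2% of its exonic bases under Mlx on the other strand.

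The spread between libraries of one group had a regular form. Scrambled control 3 was the lowest of its group for 34 of the 45 members, and IFNγR1KO 12 was the lowest of its group for 37, including all 14 core genes in both cases. The 34 members that were lowest in both libraries had a median transcript length of 1265 bases. The 5 members that were highest in both, Psmd2, Psmd3, Psme3, Psme4 and Psmf1, had a median of 2961 bases. Over the 45 members, the deviation of a library from the others of its group was higher for longer transcripts, with Spearman's rho of 0.589 in scrambled control 3 and 0.497 in IFNγR1KO 12. Over 11125 protein-coding genes rho was 0.594 and 0.477, so the trend was as strong outside the proteasome. The log2 fold change between the groups also went with length over the 45 members, with rho of -0.481, so that longer members had the lower values. This last rho was not computed over all genes, so whether it is particular to the members was not tested. All these rhos are descriptions across genes of the same libraries, which share their depth and scaling, and genes are not independent replicates. The ratio of summed 19S to summed 20S transcripts was highest in scrambled control 3 and IFNγR1KO 12 within their groups. It stood at 0.00, 0.08 and 0.39 on the log2 scale in scrambled control 1 to 3 and 0.01, 0.00 and 0.36 in IFNγR1KO 10 to 12.

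**Figure D3:**
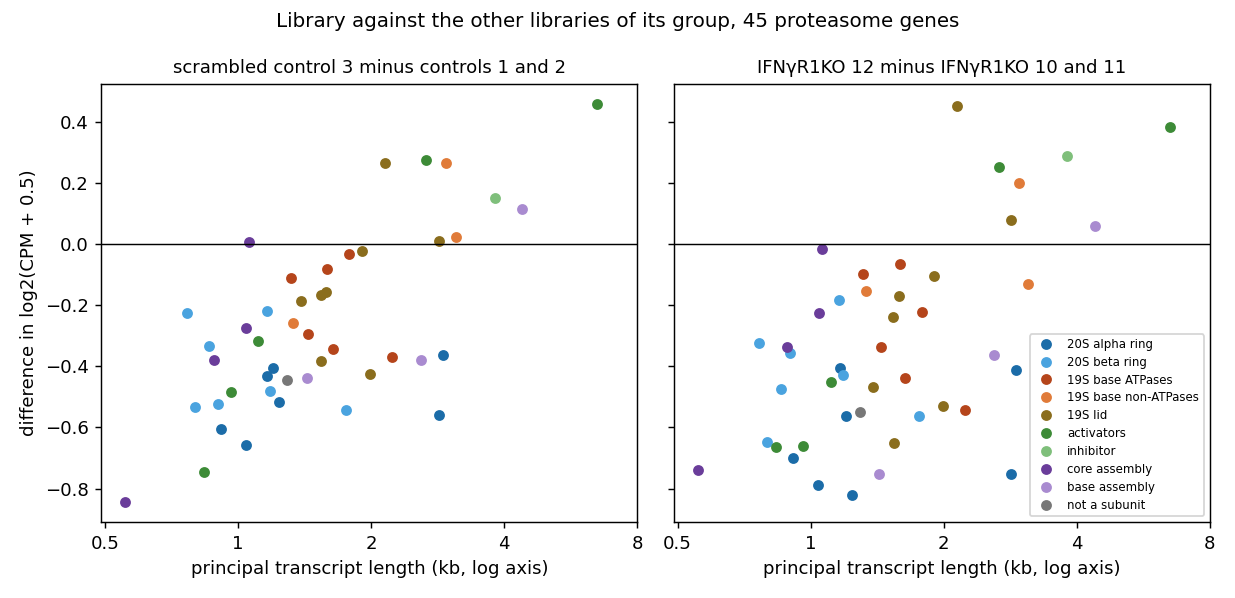
Difference in log2(CPM + 0.5) between scrambled control 3 and the mean of scrambled control 1 and 2 (left) and between IFNγR1KO 12 and the mean of IFNγR1KO 10 and 11 (right), against the length of the principal transcript in kb (logarithmic axis), with a point for each of the 45 tested members coloured by role. Short core subunits lie below 0 and long members such as Psme4 above it in both panels (Spearman's rho 0.589 and 0.497).

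Because these libraries stood in both groups, leaving them out together narrowed the spread. With scrambled control 1 and 2 against IFNγR1KO 10 and 11, an alternative chosen after the values were seen, 11 of the 45 members fell (24.4%) against 11.8% of all genes, and 0 rose. They were Psma1, Psma4, Psma5, Psmb7, Psmd1, Psmd2, Psmd3, Psmd5, Psmd7, Psmd11 and Psmd12. The median was -0.14 with 36 members below 0, against -0.15 and 37 with all libraries. Psmd7 gave -0.49 and Psmd12 -0.38 in that fit (adjusted p = 0.00332 and 0.0181, edgeR). The calls also depended on single libraries. Leaving out scrambled control 1 left 1 call (Psmd5), and leaving out scrambled control 3 gave 2 (Psma4 and Psmd7). Leaving out IFNγR1KO 12 gave 4 (Psmd3, Psmd5, Psmd7 and Psme4). Leaving out scrambled control 2, IFNγR1KO 10 or IFNγR1KO 11 gave 0. The share of all genes called in either direction, 15.3% with all libraries, also changed. It was 7.93%, 7.78% and 7.32% without scrambled control 2, IFNγR1KO 10 and IFNγR1KO 11, each left out alone. It was 12.42%, 13.03% and 19.99% without scrambled control 1, scrambled control 3 and IFNγR1KO 12, so the member calls were fewest where calls over all genes were fewest. Psmd7 passed in 2 of these 6 fits, Psmd5 in 2 and Psmd12 in 0, while their log2 fold changes stayed between -0.54 and -0.38.

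**Figure D4:**
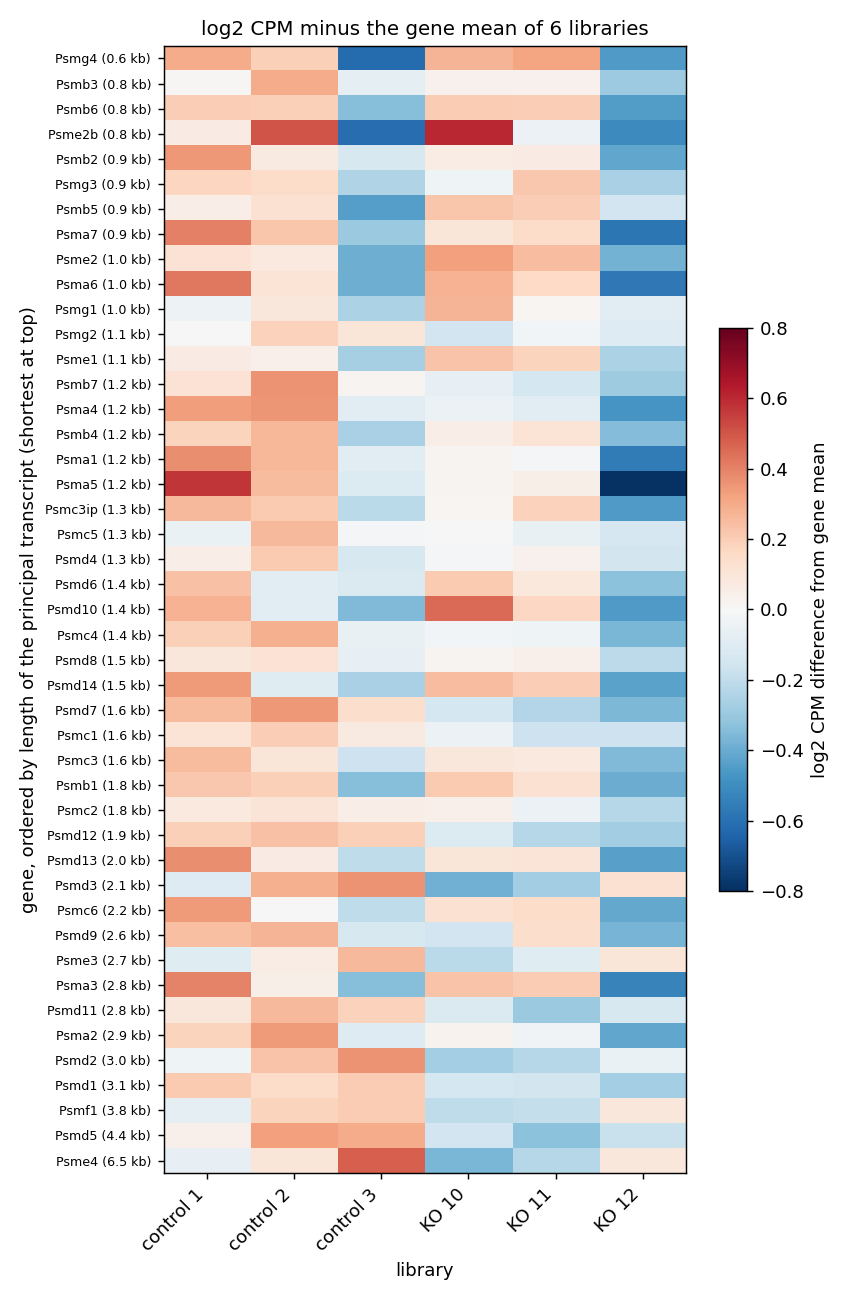
Log2 CPM of the 45 tested members (rows, ordered by principal transcript length in kb, shortest at top) minus the mean over the 6 libraries, by library (columns); red is above and blue below the gene's mean. Scrambled control 3 and IFNγR1KO 12 are blue for most short members, and both are red for Psme4 and Psmf1, while Psmd7, Psmd12 and Psmd5 are red in all scrambled control libraries and blue in all IFNγR1KO libraries.

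Of the immunoproteasome partners, 1 of 3 passed the test, where 15.3% of all genes did. Psmb8, which replaces Psmb5, stood at 5.75, 6.17 and 5.89 CPM in scrambled control and 0.852, 0.542 and 1.41 CPM in IFNγR1KO libraries, and fell by 2.66 on the log2 scale (SE 0.328, 95% interval -3.37 to -1.95, adjusted p = 0.000289, edgeR). Psmb9, which replaces Psmb6, stood at 4.89, 4.18 and 4.16 CPM against 1.56, 1.63 and 3.51 CPM, with a log2 fold change of -0.98 (adjusted p = 0.0617, edgeR). Psmb10, which replaces Psmb7, stood at 41.5, 42.7 and 34.5 CPM against 31.7, 33.9 and 25.3 CPM, with a log2 fold change of -0.38 (adjusted p = 0.124, edgeR). None of the 3 overlapped between the groups, where 16.6% of all genes lay lower without overlap. Psmb8 rested on 53, 62 and 61 counts in scrambled control and 6, 4 and 10 in IFNγR1KO libraries. Psmb9 rested on 45, 42 and 43 counts against 11, 12 and 25.

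Ratios within a library do not depend on how libraries are scaled. For each 100 counts of Psmb5 there were 4.21, 4.30 and 6.06 counts of Psmb8 in scrambled control and 0.554, 0.358 and 1.18 in IFNγR1KO libraries, a difference of -2.96 on the log2 scale. The ratio of Psmb9 to Psmb6 differed by -1.05, with IFNγR1KO 12 inside the range of the controls, and that of Psmb10 to Psmb7 by -0.06. Two-sided exact permutation tests gave p = 0.1, 0.3 and 0.5 for the 3 pairs, or 0.3, 0.45 and 0.5 after Benjamini-Hochberg adjustment over them, and 0.1 is the smallest p that 3 libraries against 3 allow. Scrambled control 3 and IFNγR1KO 12 had the highest ratio of their groups for Psmb8 to Psmb5 and for Psmb9 to Psmb6. For Psmb10 to Psmb7 they did not. The part of transcript length in these ratios was not tested. Of the exonic bases of Psmb8, 14.7% lie under another gene, as do 5.8% of those of Psmb9.

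**Figure D5:**
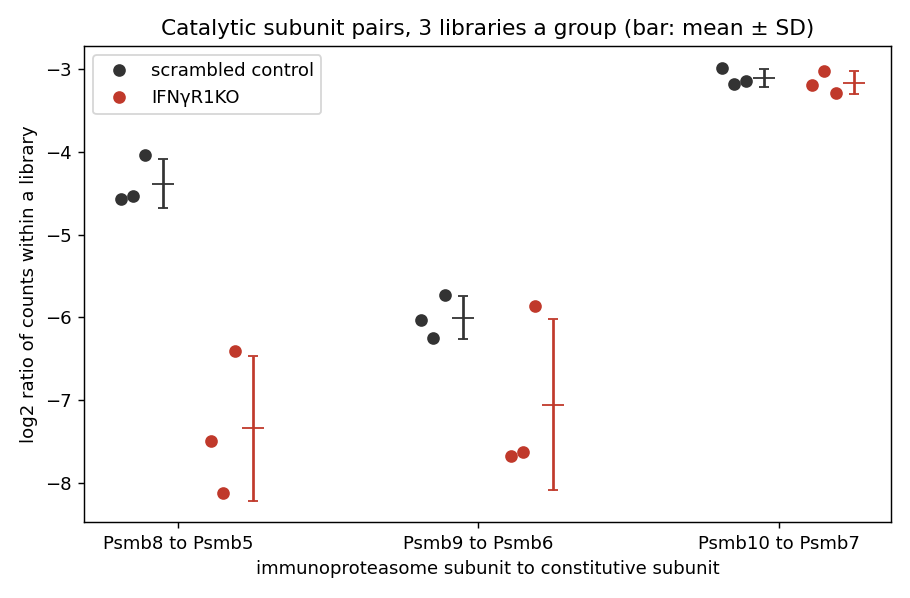
Log2 ratio of counts of each immunoproteasome subunit to the standard subunit whose place it takes (vertical axis), a point for each library, with the mean and SD of 3 libraries beside the points. The Psmb8 to Psmb5 ratio lies lower in all 3 IFNγR1KO libraries (-8.12 to -6.40) than in all 3 scrambled control libraries (-4.57 to -4.05), while the Psmb10 to Psmb7 ratios overlap.

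Proteasome genes with other symbols were read from a list of 11 tested subunits, chaperones and associated enzymes. Of these, Uchl5, a deubiquitinase of the 19S particle, fell by 0.58 on the log2 scale (50.0, 55.4 and 58.9 CPM in scrambled control against 41.9, 33.1 and 35.1 CPM in IFNγR1KO libraries, adjusted p = 0.0178, edgeR), and 0 rose. That was 9.09% of the list, near the 7.62% of all genes called lower. Leaving out scrambled control 2 or IFNγR1KO 11 left 0 calls in the list, leaving out scrambled control 3 gave 2, and leaving out both libraries that stood apart gave 3 lower and 1 higher. The fit without both called 22.3% of all genes in either direction. Pomp, the chaperone that helps assembling cores join and mature, stood at 246, 250 and 177 CPM against 192, 180 and 134 CPM and gave -0.41 (adjusted p = 0.147, edgeR), with overlapping groups. It passed the test without scrambled control 3 and without both libraries that stood apart.

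Among the regulators of proteasome transcription, calls were found in both directions. Nfe2l1, which encodes NRF1, stood at 86.7, 91.8 and 120 CPM in scrambled control and 206, 217 and 276 CPM in IFNγR1KO libraries, and rose by 1.23 on the log2 scale (SE 0.168, 95% interval 0.86 to 1.59, adjusted p = 0.000577, edgeR). Its lowest IFNγR1KO library lay well above its highest control, and the call held in every fit run, leaving out each library included. Ngly1, the enzyme that removes sugars from NRF1 during its activation, rose by 0.62 (adjusted p = 0.0378, edgeR). Keap1, the adaptor that marks NRF2 for degradation, fell by 0.54 and Maff, a small Maf partner of both factors, fell by 0.76 (adjusted p = 0.0235 and 0.0332, edgeR). Nfe2l2, which encodes NRF2, gave 0.09 (95% interval -0.22 to 0.41). Of 9 tested genes in this list 2 rose and 2 fell (44.4% called), against 7.73% of all genes called higher and 7.62% called lower. The calls of Ngly1, Keap1 and Maff were lost in several fits: 1 gene rose without any 1 of scrambled control 1, scrambled control 3 and the 3 IFNγR1KO libraries, 0 fell without scrambled control 2, IFNγR1KO 10 or IFNγR1KO 11, and 1 fell without scrambled control 3. The RNA of NRF1 does not give the amount of its processed protein. Of the 31 tested subunits of the core, base and lid, 0 were called higher, where 7.73% of all genes were. Whether NRF1 acted on the subunits was not tested.

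Of 9 tested genes that respond to interferon, listed for reference, Gbp2, Gbp3 and Irf1 fell, by 1.97, 1.69 and 0.59 on the log2 scale (adjusted p = 0.000206, 0.00652 and 0.0203, edgeR), and 0 rose. That was 33.3% of the list, against 7.62% of all genes called lower. Irf1 missed the threshold without scrambled control 2, IFNγR1KO 10 or IFNγR1KO 11 (adjusted p = 0.0667, 0.109 and 0.0940, edgeR), which left 2 lower.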

How the data were processed

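RNA of 3 scrambled control and 3 IFNγR1KO cultures of B16 cells was sequenced as paired-end reads after poly(A) selection. Per the submitters' processing notes, STAR 2.7.5a was used for alignment to GRCm38 and HTSeq 0.11.2 for counting, and the counts were deposited by the authors as raw whole numbers for each gene. The annotation release and the strand setting are not given in the sources used here. Rows that name no gene were left out of library sizes: 46.9% to 47.7% of a library's total was in no annotated feature, 1.57% to 1.85% ambiguous and 3.76% to 4.61% not uniquely aligned. Without a known strand setting, reads of overlapping genes cannot be told apart.

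Everything else was computed in R 4.3.3 with edgeR 4.0.16 (filterByExpr with a minimum count of 10 and a minimum total of 15, TMM, quasi-likelihood test, Benjamini-Hochberg adjustment over all genes tested), and tested on simulated data. A call is an adjusted p under 0.05. GENCODE M21 held 55154 of the 55335 identifiers. Levels per length use the principal transcript, and shared sequence is the share of 100-base stretches found in other annotated transcripts. Replicates differed by more than counting noise (chi-square per degree of freedom 2.71 to 24.8), so all were kept. The depth, 6698956 to 10579788 counts on genes, makes 1 count 0.0966 to 0.142 CPM.

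The members, the related lists and the tests were chosen with earlier results of these data known. Named were all members called, in each role the member with the largest change and the one with the highest level per length, the cutting subunits and their paralogs, activators, inhibitor and Psmg chaperones, members left out by the filter, up to 3 called genes a direction in each related list, and Nfe2l1, Nfe2l2 and Pomp. Psmd1, Psmd3, Psmd11, Psmd14, Psmd10 and Psme2b were named after their values were seen. The result of a list of ubiquitin supply and shuttle genes is not reported here. Of the listed genes, 1 symbol (Paaf1) was not matched. Alternatives were DESeq2 1.42.0, limma voom (limma 3.58.1), other normalizations, filters and thresholds, and leaving out each library. Leaving out scrambled control 3 and IFNγR1KO 12 together was chosen after seeing the data.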

Additional observations from a re-analysis of the deposited data

How the results depend on the processing

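No paired analysis was possible because the groups share no replicate numbers in the labels. The count of 3 members called lower became 1 with upper quartile scaling, 1 with library totals alone, 0 at an adjusted p under 0.01 (edgeR, 8 at an unadjusted p under 0.05; DESeq2 4 at 0.05) and 11 without scrambled control 3 and IFNγR1KO 12 together, and ran from 0 to 4 when 1 library was left out. RLE scaling and a filter of 1 CPM gave the same 3 members. No filter also gave 3, with Psma5 in place of Psmd12, and limma voom gave 2, Psmd7 and Psmd12. The member left with upper quartile scaling and with library totals alone was Psmd7. No fit called a member higher. When 1 library was left out, the share of all genes called in either direction ran from 7.32% to 19.99%. The other proteasome genes gave 1 higher and 3 lower without both libraries, and 0 to 2 lower when 1 was left out. The regulators gave 1 higher with DESeq2 and without both libraries, 0 lower with library totals alone, and 1 to 2 higher and 0 to 2 lower when 1 was left out. The immunoproteasome list gave 2 lower with limma voom, with no filter and without both libraries, and 1 to 2 when 1 was left out, the second being Psmb9.

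Directions turned for small values. Psmb6 gave 0.0136 with upper quartile scaling, 0.0244 with library totals alone and 0.00521 without both libraries, and -0.18 to 0.16 when 1 library was left out. Psmg3 gave 0.0017 with library totals alone and -0.17 to 0.0597 when 1 was left out. When 1 library was left out, Psmb4 ran from -0.27 to 0.00095, Psmc3 from -0.23 to 0.0097, Psmc3ip from -0.30 to 0.00046, Psmg4 from -0.16 to 0.29, and the difference of the Psmb10 to Psmb7 ratio from -0.13 to 0.0023. The cause was not tested. Scaling moved the median of all genes by at most 0.05 on the log2 scale. At these depths the intervals of the members allow changes of up to 0.94 below and 0.82 above 0.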
